A study of Mus musculus with 12 samples.

Results

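The genes described here are 10 components of the transforming growth factor beta (TGF-beta) pathway: the receptors Tgfbr1 and Tgfbr2, the signal-carrying SMAD genes Smad2, Smad3 and Smad4, the inhibitory SMAD genes Smad6 and Smad7, and the nuclear repressors Ski, Skil and Tgif1. They were chosen by symbol from 24107 genes in a table of expression values of sorted mouse bone marrow cells. All 10 had a row and all 10 passed the filter on low values, which left 11462 genes. Smad6 passed that filter only through the 3 leukemic progenitor libraries and 1 library of GFP+ marrow, and a gene that passes this way had to differ between leukemic and control progenitors.

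TGF-beta binds TGFBR2, which phosphorylates the partner kinase TGFBR1. TGFBR1 then phosphorylates SMAD2 and SMAD3, which join SMAD4 and enter the nucleus to switch genes on or off. SMAD6 and SMAD7 block the receptors or compete for SMAD4, SKI and SNO (the product of Skil) hold SMAD complexes in a repressed state, and TGIF1 brings in histone deacetylases. In the marrow the pathway is known for keeping blood stem cells quiescent and for restraining the growth of progenitors. PRDM16 is a zinc finger protein related to the leukemia gene MECOM, and it is known to bind SKI and to repress TGF-beta signalling.

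The study compared 4 groups of 3 libraries, all from C57BL/6 mice. Megakaryocyte-erythroid progenitors (MEP), which give rise to platelets and red cells, came from wild-type mice (control MEP) and from leukemic recipients of cells expressing Prdm16s, the short form of Prdm16 (leukemic MEP). Unsorted whole marrow of wild-type mice (control marrow) was set against GFP+ leukemic marrow cells of Prdm16s recipients (GFP+ marrow). Prdm16s expression, leukemia and the state of being a transplant recipient were therefore changed together, and GFP selection was added in marrow, so these cannot be told apart. The labels do not say how Prdm16s was delivered, or whether replicates were separate mice, so p-values measure only the spread between these libraries.

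FPKM is a level scaled to transcript length in kilobases and to a factor of each library. Prdm16 was at 0.363 to 0.833 FPKM in control MEP and at 6.35 to 15.3 in leukemic MEP. It was at 0.632 to 0.957 FPKM in control marrow and at 7.09 to 10.03 in GFP+ marrow, in the direction of every label, although the table does not separate Prdm16s from other reads of the gene. Recovered reads per library ranged from 571690 to 9708624, and leukemic MEP replicate 3 (571690) and GFP+ marrow replicate 2 (1149716) were the shallowest. The library factor of FPKM did not follow these reads alone. A read per kilobase was 0.0898 FPKM in leukemic MEP 1 (9708624 reads) and 0.118 FPKM in GFP+ marrow 3 (9437212 reads). Leukemic MEP 3 also stood apart in content: its 10 neutrophil and granule markers summed to 94100 FPKM, against 945 and 2310 in leukemic MEP 1 and 2, 26.9 to 397 in control MEP and 75600 to 92700 in control marrow. Its megakaryocyte markers, 8 of 8 above 0 in every leukemic MEP library, summed to 300 FPKM against 5700 and 4680 in the other two. Xist was at 39.2 to 57.1 FPKM in replicates 1 and 2 of both Prdm16s groups and at 0.0904 or less in the other 8 libraries, which all expressed Ddx3y. Sex therefore differed between the controls and 4 of the 6 Prdm16s libraries, and its part in the results was not tested.

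The members are spread over the genome (build GRCm38). Tgfbr1 (chr4:47353222-47414926) and Ski (chr4:155154075-155222535) lie on chromosome 4, Skil on chromosome 3 (chr3:31095058-31122923) and Tgif1 on chromosome 17 (chr17:70844205-70853532). Smad2, Smad4 and Smad7 are on chromosome 18. Tgfbr2 (chr9:116087695-116175363), Smad3 (chr9:63646766-63757994) and Smad6 (chr9:63953076-64022085) are on chromosome 9. Smad3 and Smad6 are neighbours 195082 bases apart with 0 protein-coding genes between them, and only Smad6 was called in MEP. No other annotated gene shared exonic bases with any of the 10.

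The promoters of the members called in the MEP and marrow pairs are shown where RefSeq (GRCm38.p6) has them, as 300 bases that end 50 bases after the start. They are Smad6 (chr9:64022010-64022309, minus strand) and Tgfbr2 (chr9:116175314-116175613, minus strand), 5′ to 3′. Capitals mark a match to GTCTAGAC, the palindromic SMAD-binding element.

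Smad6: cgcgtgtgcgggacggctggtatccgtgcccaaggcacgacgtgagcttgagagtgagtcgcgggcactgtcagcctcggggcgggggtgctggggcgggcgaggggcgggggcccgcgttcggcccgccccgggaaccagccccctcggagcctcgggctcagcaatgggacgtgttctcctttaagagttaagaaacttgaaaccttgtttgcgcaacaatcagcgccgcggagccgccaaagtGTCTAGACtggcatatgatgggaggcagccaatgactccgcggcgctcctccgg

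Tgfbr2: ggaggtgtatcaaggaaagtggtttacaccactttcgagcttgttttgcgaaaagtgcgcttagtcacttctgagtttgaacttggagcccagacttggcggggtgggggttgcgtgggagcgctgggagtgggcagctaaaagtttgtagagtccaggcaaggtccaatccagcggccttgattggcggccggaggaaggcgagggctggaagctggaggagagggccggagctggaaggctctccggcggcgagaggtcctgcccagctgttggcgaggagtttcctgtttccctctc

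The 8-letter palindrome, which reads the same on both strands, was in 70 of 32841 promoters (0.213%). Among the 6 members that matched the promoter table (Tgfbr1, Tgfbr2, Smad3, Smad6, Ski and Tgif1, with 11 promoters), Smad6 alone held it, across the start site. The Tgfbr2 window held none of 5 motifs searched on both strands, the others being CAGACA (in 21% of all promoters, and in those of Tgfbr1 and Tgif1), GGCGCC (in 11.9%, and in those of Ski and Tgfbr1), the GATA factor motif AGATAA (in 11.2%, and in no member's) and the ETS factor motif CCGGAA (in 14.9%, and in that of Tgif1). These matches are a description of letters, with no measurement of binding.

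In MEP, Smad4 and Smad6 were called higher in the leukemic cells, while 0 members were called lower with limma-trend (1, Tgif1, at an unadjusted p under 0.05, and 0 with voom on recovered reads). How many of all genes were lower at the unadjusted threshold was not computed. A gene is called here at an adjusted p under 0.05 from limma-trend on log2(FPKM + 1), with p-values adjusted by the Benjamini-Hochberg method over all 11462 genes. Of these, 26.0% were called in MEP in either direction and 13.7% were called higher, so 2 of 10 members is near the background, and Smad6 had to differ by the way it passed the filter. In marrow, Tgfbr2 alone was called, and it was lower in GFP+ cells, where 9.05% of tested genes were called and 6.03% called lower. The calls in marrow were split 346 higher to 691 lower as reported, 195 to 844 at equal FPKM totals, 457 to 602 with quantile normalization, 821 to 948 with only the marrow groups fitted and 943 to 1194 without leukemic MEP 3. Cell-type markers moved in the same comparisons. The 8 erythroid markers, 5 or more above 0 in every library, summed to 1530 to 1920 FPKM in control MEP and 103 to 375 in leukemic MEP, and to 636 to 900 in control marrow and 32.3 to 132 in GFP+ marrow. Their part, and that of the megakaryocyte and neutrophil markers, in the values of all 10 members was not tested.

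**Figure D1:**
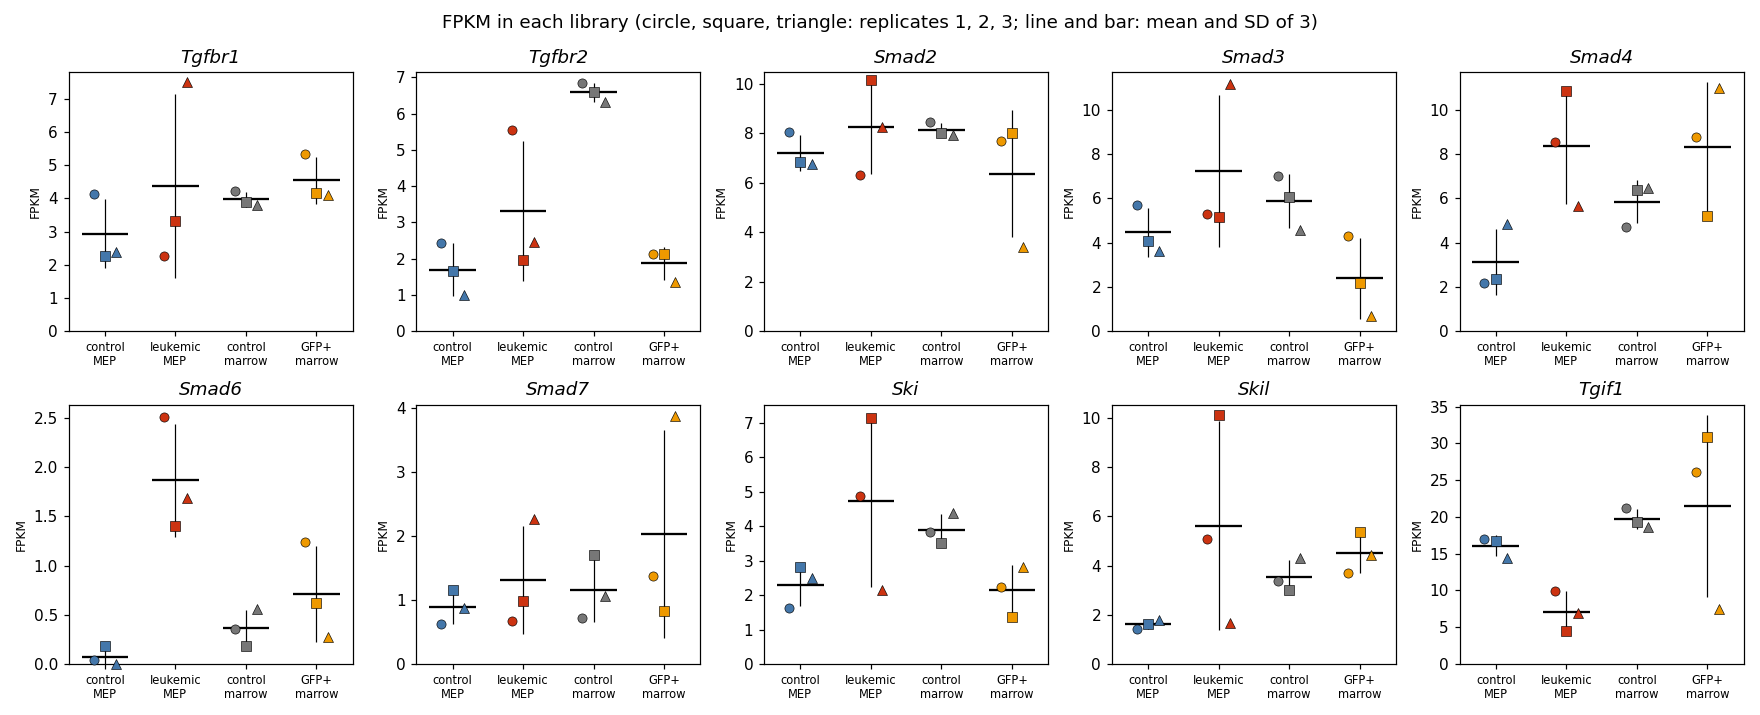
Levels (FPKM, linear axes from 0) of the 10 genes in each of the 12 libraries. Points are libraries, the line is the mean of 3 and the bar the SD. Smad4 and Smad6 in leukemic MEP lie above all control MEP libraries, Tgfbr2 in GFP+ marrow lies below all control marrow libraries, and leukemic MEP 3 (triangle) is the lowest leukemic library for Ski and Skil.

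Of the receptors, Tgfbr2, the ligand-binding kinase, was the only member called between the control populations as reported. It was at 2.44, 1.66 and 0.992 FPKM in control MEP and at 6.85, 6.59 and 6.31 in control marrow, with no overlap. The difference of log2(FPKM + 1), control MEP minus control marrow, was -1.53 ± 0.34 (SE; adjusted p = 0.00799), and it was called under all 23 alternatives (adjusted p 5.35e-06 to 0.048). In bulk libraries, fewer cells of a type and less RNA per cell cannot be told apart. Between these controls 15.0% of tested genes were called. With voom on recovered reads Smad6 differed by more (-2.42, adjusted p = 0.111) than Tgfbr2 (-1.96, adjusted p = 0.00421). Skil was also called with voom (-1.11, adjusted p = 0.0453), beside 845 genes higher and 1886 lower of 11462. It was called with only the control groups fitted (-0.79, adjusted p = 0.0127) and with array weights (-0.72, adjusted p = 0.00699). Array weights also called Ski and Tgfbr1, beside 2473 genes higher and 3038 lower.

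GFP+ marrow had Tgfbr2 at 2.14, 2.13 and 1.36 FPKM, below every control marrow library and within the range of control MEP. The difference in marrow was -1.41 ± 0.34 (adjusted p = 0.0206). It was called in 19 of 23 alternatives and was lost when any 1 control marrow library was omitted (adjusted p = 0.0751, 0.0765 and 0.0721 for replicates 1 to 3) or GFP+ marrow 3 was (0.0574). Monocyte and macrophage markers, 8 of 8 above 0 in all 6 marrow libraries, summed to 902 to 915 FPKM in control and 194 to 376 in GFP+ marrow. T and NK cell markers summed to 11.4 to 18.6 FPKM in control marrow (5 or 6 of 6 above 0) and to 0 to 3.55 in GFP+ marrow, where Cd3e, Cd2, Klrd1, Ncr1 and Gzma were at 0 in every library. The part of these cells in the Tgfbr2 difference was not tested.

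Leukemic MEP had Tgfbr2 at 5.53, 1.97 and 2.45 FPKM, a range that overlapped control MEP (0.62 ± 0.34, adjusted p = 0.193). The value of replicate 3 rests on 7 reads. The change in MEP exceeded the change in marrow by 2.04 ± 0.47 (adjusted p = 0.0293), a test in which 4.89% of genes and 1 of 10 members were called. This call was lost in 10 of 22 alternatives, among them quantile normalization (1.49, adjusted p = 0.103), no filter on low values (0.0507) and the omission of control MEP 2 or 3 (0.0694 and 0.0974). It was also lost without leukemic MEP 1 (0.0538), without control marrow 1, 2 or 3 (0.0816, 0.077 and 0.0715), or without GFP+ marrow 2 or 3 (0.0518 and 0.0509).

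Tgfbr1, the signalling receptor kinase, was at 4.14, 2.28 and 2.39 FPKM in control MEP and at 2.27, 3.31 and 7.51 in leukemic MEP. Its marrow values were 4.22, 3.87 and 3.80 FPKM in controls and 5.34, 4.15 and 4.11 in GFP+ cells. Both pairs overlapped, and neither difference was called (MEP 0.36 ± 0.35, adjusted p = 0.480; marrow 0.15 ± 0.35, adjusted p = 0.843). The highest value, leukemic MEP 3, rests on 27 reads, and without that library the MEP difference was -0.04. The ratio of Tgfbr2 to Tgfbr1 in FPKM was 1.62 to 1.70 in control marrow and 0.329 to 0.512 in GFP+ marrow, and it ran from 0.326 to 2.44 in leukemic MEP.

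Smad4 encodes the partner shared by the TGF-beta and bone morphogenetic protein (BMP) branches. It was at 2.18, 2.35 and 4.84 FPKM in control MEP and at 8.56, 10.8 and 5.66 in leukemic MEP. All 3 leukemic libraries were above all 3 controls, and the lowest of them, replicate 3, rests on 12 reads. The difference was 1.20 ± 0.35 (adjusted p = 0.0234), and 1.42 without that library (adjusted p = 0.0098). The call was lost in 6 of 23 alternatives: quantile normalization (0.85, adjusted p = 0.112), a fit of the MEP groups alone (0.0729), and without control MEP 1 or 2 (0.0836 and 0.0851) or leukemic MEP 1 or 2 (0.058 and 0.069).

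In marrow Smad4 was at 4.72, 6.36 and 6.48 FPKM in controls and at 8.76, 5.22 and 10.98 in GFP+ cells, and the groups overlapped (0.40 ± 0.35, adjusted p = 0.520). The mean levels in leukemic MEP (8.35 ± 2.59 FPKM, SD, n = 3) and GFP+ marrow (8.32 ± 2.90) were the highest of the 4 groups and did not differ beyond their spread. Control marrow (5.86 ± 0.99) and control MEP (3.13 ± 1.49) followed.

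The receptor-activated Smad2 and Smad3 were not called in either pair. Smad2 was at 8.05, 6.83 and 6.75 FPKM in control MEP and at 6.33, 10.1 and 8.24 in leukemic MEP (0.15 ± 0.30, adjusted p = 0.745). Its marrow values were 8.45, 7.99 and 7.93 FPKM in controls and 7.69, 8.01 and 3.39 in GFP+ cells (-0.38 ± 0.30, adjusted p = 0.480). The 95% intervals of the differences ran from -0.50 to 0.80 in MEP and from -1.03 to 0.27 in marrow, so a change of either sign within them was not detectable here.

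Smad3 was at 5.70, 4.07 and 3.62 FPKM in control MEP and at 5.31, 5.17 and 11.2 in leukemic MEP, where the highest value came from replicate 3 (34 reads). The groups overlapped (0.53 ± 0.42, adjusted p = 0.372). In marrow it was at 7.02, 6.05 and 4.59 FPKM in controls and at 4.30, 2.18 and 0.672 in GFP+ cells, with no overlap. That difference was -1.16 ± 0.42 (adjusted p = 0.110). It was called without leukemic MEP 3 (adjusted p = 0.0449), which left its size at -1.16, without GFP+ marrow 1 (-1.56, adjusted p = 0.042) and with voom on recovered reads (-2.04, adjusted p = 0.0202).

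The 2 genes did not keep 1 ratio. Smad3 divided by Smad2, in FPKM, was 0.536 to 0.708 in control MEP and 0.579 to 0.831 in control marrow. It was 0.560, 0.273 and 0.198 in GFP+ marrow and 0.839, 0.510 and 1.36 in leukemic MEP. Smad3 was at a higher FPKM than Smad2 in leukemic MEP 3 alone of the 12 libraries.

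Smad6, an inhibitory SMAD best known for damping the BMP branch, was close to the floor in control MEP: 0.0361, 0.181 and 0 FPKM, from 1, 4 and 0 reads. A count of 0 in replicate 3 allows up to 0.141 FPKM (3 reads). Leukemic MEP had 2.51, 1.40 and 1.69 FPKM, from 83, 34 and 3 reads. The exact Poisson 95% interval of replicate 3, for counting error only, ran from 0.349 to 4.94 FPKM and stayed above the control MEP 1 interval (up to 0.201) while overlapping that of control MEP 2 (up to 0.464).

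The Smad6 difference in MEP was 1.40 ± 0.28 (adjusted p = 0.00321), and 1.44 without replicate 3 (adjusted p = 0.00367). It was called in all 22 alternatives that kept the gene. These calls add no support, because Smad6 passed the filter only through the 3 leukemic libraries and 1 GFP+ marrow library. The size depended on the scale of a gene this low, with 3.61 at a pseudocount of 0.1, 2.03 at 0.5 and 5.05 in voom on reads. In marrow Smad6 was at 0.361, 0.182 and 0.556 FPKM in controls and at 1.24, 0.624 and 0.278 in GFP+ cells, with overlap (0.30 ± 0.28, adjusted p = 0.563). The GFP+ replicate 2 value rests on 2 reads.

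Smad7, the inhibitory SMAD that targets the TGF-beta receptors and is itself a feedback target, stayed low and was not called. It was at 0.629, 1.15 and 0.881 FPKM in control MEP and at 0.667, 0.992 and 2.26 in leukemic MEP. Its marrow values were 0.724, 1.70 and 1.06 FPKM in controls and 1.38, 0.834 and 3.88 in GFP+ cells. Groups overlapped in both pairs, with differences of 0.24 ± 0.39 (adjusted p = 0.686) and 0.38 ± 0.39 (adjusted p = 0.593). The highest values came from leukemic MEP 3 (6 reads) and GFP+ marrow 3 (146 reads). The MEP difference was -0.04 without the first, and the marrow difference -0.02 without the second.

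Among the repressors, Skil and Ski were higher in 2 of 3 leukemic MEP libraries. Skil was at 1.42, 1.61 and 1.81 FPKM in control MEP and at 5.10, 10.1 and 1.67 in leukemic MEP. Ski was at 1.61, 2.81 and 2.48 FPKM in control MEP and at 4.88, 7.14 and 2.14 in leukemic MEP. For both genes replicates 1 and 2 lay above all controls and replicate 3, on 10 and 7 reads, lay within the control range.

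With all libraries neither was called (Skil 1.12 ± 0.42, adjusted p = 0.0696; Ski 0.71 ± 0.36, adjusted p = 0.164). Without leukemic MEP 3, the library rich in neutrophil and granule transcripts, both were called: Skil at 1.66 (adjusted p = 0.00167) and Ski at 1.09 (adjusted p = 0.0188). Both were also called with voom on reads (Skil 2.12, adjusted p = 0.00115; Ski 1.43, adjusted p = 0.0071), and with array weights, which gave that library a weight of 0.0971 (adjusted p = 0.000167 and 0.0022). Over all 11462 genes in MEP, voom called 2046 higher and 1229 lower, and array weights called 3251 higher and 2900 lower. Skil was called in 4 of 23 alternatives and Ski in 4 of 22. Without leukemic MEP 2 neither gene was called (Skil 0.63, adjusted p = 0.217, and Ski 0.40, adjusted p = 0.43). Quantile normalization gave 0.73 for Skil (adjusted p = 0.267) and 0.32 for Ski (adjusted p = 0.589). Megakaryocyte and platelet markers were also higher in leukemic MEP 1 and 2 (5700 and 4680 FPKM, against 15.5 to 129 in control MEP), and their part in the Ski and Skil values was not tested. Summed, Ski and Skil were at 9.98, 17.3 and 3.81 FPKM in leukemic MEP and at 3.03 to 4.41 in control MEP.

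In marrow the repressors parted. Ski was at 3.82, 3.50 and 4.37 FPKM in controls and at 2.24, 1.36 and 2.81 in GFP+ cells, below all controls (-0.67 ± 0.36, adjusted p = 0.282; called only with array weights, -0.69, adjusted p = 0.0264). Skil was at 3.36, 2.99 and 4.30 FPKM in controls and at 3.72, 5.35 and 4.44 in GFP+ cells, with overlap (0.27 ± 0.42, adjusted p = 0.745). The ratio of Skil to Ski in FPKM was 0.573 to 0.883 in control MEP, 0.855 to 0.984 in control marrow, 0.778 to 1.42 in leukemic MEP and 1.58 to 3.95 in GFP+ marrow. The GFP+ ratios were above those of the other 9 libraries, and neither gene's own marrow difference was called.

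Tgif1, a homeodomain repressor of SMAD targets, had the highest FPKM of the 10 genes in every control library. It was at 17.1, 16.7 and 14.4 FPKM in control MEP and at 9.98, 4.44 and 6.89 in leukemic MEP, with no overlap. The difference of -1.13 ± 0.43 was not called (adjusted p = 0.0703). The shared spread includes GFP+ marrow, where Tgif1 was at 26.1, 30.8 and 7.46 FPKM against 21.2, 19.3 and 18.7 in control marrow (-0.09 ± 0.43, adjusted p = 0.926). Without GFP+ marrow 3 the MEP difference had the same size and an adjusted p of 0.00685, and the marrow difference was 0.50. With array weights the MEP difference was -0.67 (adjusted p = 0.0138). It was called in only 2 of 23 alternatives. Among the others were the omission of leukemic MEP 2 (-0.87, adjusted p = 0.18) and voom on recovered reads (-1.10, adjusted p = 0.11).

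**Figure D2:**
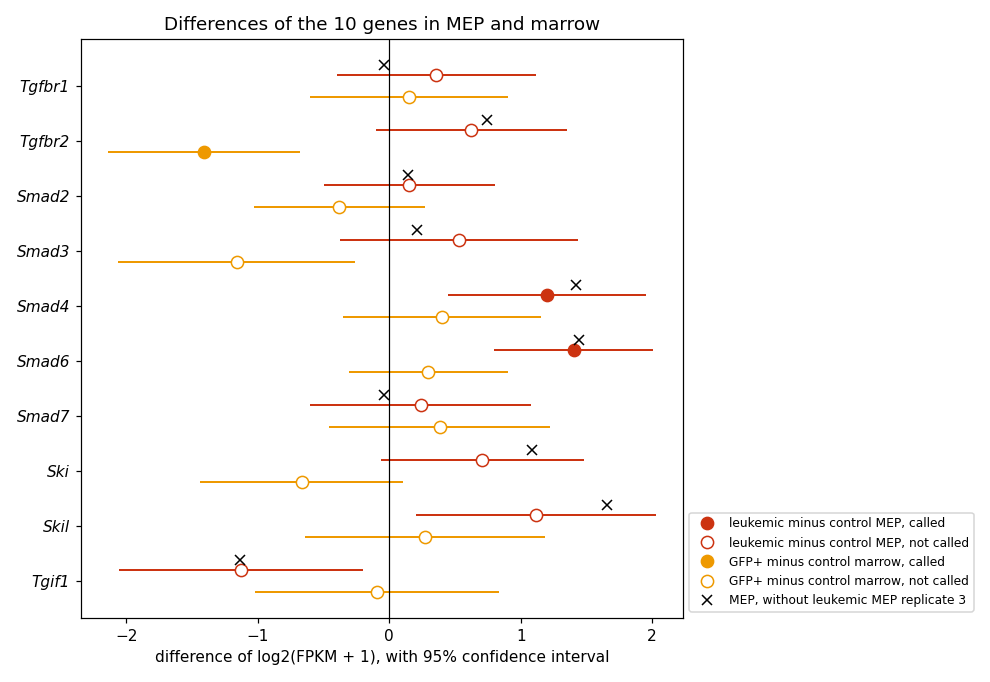
Differences of log2(FPKM + 1) for the 10 genes, with 95% confidence intervals from limma-trend, in MEP (red) and marrow (orange). Filled points are called at an adjusted p under 0.05, and crosses give the MEP difference without leukemic MEP 3, where Skil (1.66) and Ski (1.09) moved furthest up.

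Across the 10 genes, 9 differences in MEP were above 0 as reported, 6 with quantile normalization or array weights, and 7 without leukemic MEP 3. Their median as reported was 0.58, against 0.02 for all tested genes. Smad6, which had to differ by the way it passed the filter, is in this count and median. The share of all tested genes above 0 was not computed for either pair, so the counts above 0 support nothing by themselves. In marrow 5 of 10 were above 0 (4 at equal FPKM totals) with a median of 0.03, against -0.05. Groups did not overlap for 3 of 10 members in MEP (Smad4 and Smad6 above, Tgif1 below), where 40.8% of tested genes did not overlap, and for 3 of 10 in marrow (Tgfbr2, Smad3 and Ski, all below), where the share was 37.2%. These counts are near the background in both pairs.

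The populations were also compared directly. Control MEP had all 10 genes at a lower mean log2 level than control marrow as reported, but with quantile normalization 5 of 10 were higher. Leukemic MEP against GFP+ marrow gave 0 called members with limma-trend, where 3.05% of genes were called. With voom 2 members were called, beside 1348 genes higher and 816 lower of 11462, so that count is near the background. At an unadjusted p under 0.05 in limma-trend the count was 4 (Smad3, Smad6, Ski and Tgif1). The share of all genes at that unadjusted threshold was not computed. Smad3 was higher in all 3 leukemic MEP libraries than in any GFP+ marrow library (1.36 ± 0.42, adjusted p = 0.0977; 1.67 at equal FPKM totals, adjusted p = 0.0398). Smad6 did not overlap either (0.76 ± 0.28, adjusted p = 0.161), but it passed the filter only through the 3 leukemic MEP libraries and 1 GFP+ marrow library. Its place in these counts therefore supports nothing. The share of all genes without overlap was not computed for this pair. Tgif1 was at -1.32 ± 0.43 (adjusted p = 0.115; -1.92 without GFP+ marrow 3, adjusted p = 0.0109).

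**Figure D3:**
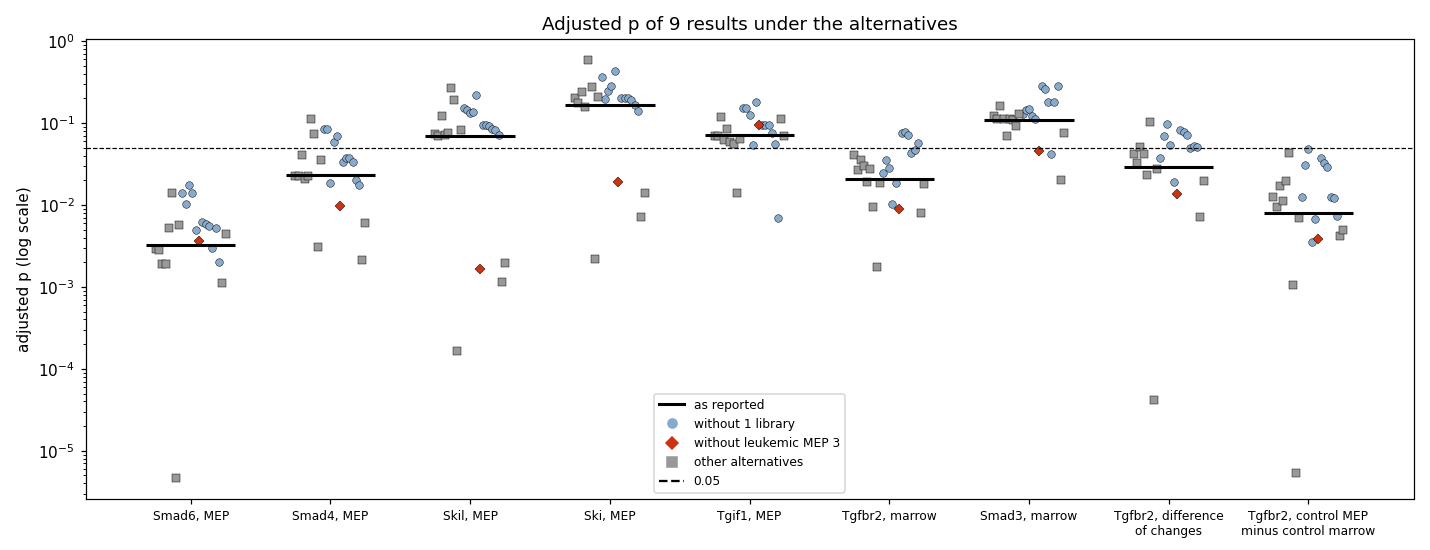
Adjusted p (log axis) of 9 results under each alternative: black bars as reported, blue circles without 1 library, red diamonds without leukemic MEP 3, grey squares other settings, dashed line 0.05. Smad6 in MEP and Tgfbr2 between the controls stay below the line throughout, while Skil and Ski in MEP fall below it without leukemic MEP 3. Smad6 had to differ by the way it passed the filter, so its place below the line adds no support.

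By level across the 12 libraries, each member was matched to the 2 tested genes with the highest Pearson r of log2(FPKM + 1), a description over libraries that share groups and depth. Smad6 was most like Tcp11l1 (r = 0.957) and Nab2 (0.950). Tgif1 was most like Snx9 (0.955) and Cptp (0.913). Smad3 was most like Fkbp15 (0.952) and Dnmt3b (0.941), the latter a DNA methyltransferase. Tgfbr1 was most like Itch (0.951), a ubiquitin ligase, and Dock10 (0.934). Tgfbr2 was most like Tmprss3 (0.945) and Slc9a9 (0.941), Smad2 like Rrm2b (0.938) and Wdr20 (0.935), and Skil like Zc2hc1a (0.928) and Rgs18 (0.916). Smad7 (Znhit1, 0.915; Sirt7, 0.900), Smad4 (Itpr1, 0.913; Mindy2, 0.905) and Ski (Lat, 0.897; S1pr1, 0.861) had the lowest best matches. Among the members themselves the highest r were 0.769 for Smad4 with Skil and 0.744 for Smad2 with Smad3, and the lowest was -0.626 for Smad2 with Smad7.

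The rest of the pathway was followed in 7 lists. Over all tested genes 13.7% were called higher and 12.3% lower in MEP, and 3.02% higher and 6.03% lower in marrow, and the counts below stand beside those shares. Counts given without leukemic MEP 3 have another background. At that setting 1722 of 11462 genes were called higher and 1392 lower in MEP, and 943 higher and 1194 lower in marrow. Among the called genes, Nedd4l and Foxh1 in MEP and Acvrl1, Id3 and Cdkn1c in marrow would not have passed the filter without the group where they were high, so these 5 had to differ and their calls support nothing. Of 14 genes for ligands and their release from latency, 5 were tested. In leukemic MEP 3 were called higher: Nrros, which holds latent TGF-beta on myeloid cells, Itgav, an integrin chain that releases it, and Thbs1, a secreted activator. Nrros was at 39.7, 44.9 and 35.2 FPKM in control MEP and at 86.4, 61.2 and 156 in leukemic MEP (1.22 ± 0.29, adjusted p = 0.00993). Thbs1 was at 0.0184, 0 and 0.215 FPKM in control MEP and at 1.57, 4.56 and 23.2 in leukemic MEP (2.71 ± 0.66, adjusted p = 0.0101), the highest being replicate 3. Thbs1 was also the only one of the list called in GFP+ marrow, at 11.4, 7.60 and 24.6 FPKM against 1.03, 2.35 and 1.24 (2.497 ± 0.66, adjusted p = 0.0343), and this call was lost without GFP+ marrow 3 (adjusted p = 0.112). Tgfb1, the ligand gene itself, was at 1.04 to 1.61 FPKM in control MEP and 1.07 to 2.68 in leukemic MEP, and was not called.

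Of 13 other receptors and co-receptors of the family, 6 were tested. In marrow 3 were called lower: Acvrl1 and the co-receptors Eng and Tgfbr3. Acvrl1, a type I receptor for BMP9, was at 2.65, 2.88 and 2.45 FPKM in control marrow and at 0.364, 0 and 0 in GFP+ marrow, and no library outside control marrow reached 1 FPKM. Tgfbr3, or betaglycan, was at 3.47, 4.80 and 3.75 FPKM in control marrow and at 0.929, 0.759 and 0 in GFP+ marrow (-1.73 ± 0.49, adjusted p = 0.0474). Eng, or endoglin, was at 22.7, 26.6 and 22.4 FPKM against 12.9, 13.2 and 13.4 (-0.81 ± 0.23, adjusted p = 0.0453). The calls of Eng and Tgfbr3 were lost without GFP+ marrow 2 (0.104 and 0.0881) or 3 (0.0817 and 0.136).

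Endothelial and stromal markers, where Acvrl1 and Eng are also known, summed to 10.7 to 18.0 FPKM in control marrow and to 21.4 to 40.0 in GFP+ marrow. There Cdh5, Lepr and Kdr were at 0 in all GFP+ libraries, and 1 to 3 of the 6 markers were above 0. In GFP+ marrow 2 the sum of 21.4 FPKM was Pecam1 alone, so the sums do not follow the markers as a set. The part of these cells in the Acvrl1 and Eng differences was not tested. In MEP 1 gene of this list was called: Eng was lower at 40.1, 27.2 and 22.5 FPKM against 53.7, 50.8 and 40.5 (-0.70 ± 0.23, adjusted p = 0.0387), and this was lost without leukemic MEP 3 (0.0927) or GFP+ marrow 2 (0.0502). Without leukemic MEP 3, Bmpr2 was called higher in its place.

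Of the 3 SMAD genes of the BMP branch, Smad1 was called higher in MEP. It was at 0.0629, 0.131 and 0.136 FPKM in control MEP and at 3.51, 1.98 and 2.94 in leukemic MEP, with no overlap (1.76 ± 0.44, adjusted p = 0.0112). In marrow it was at 1.28, 1.84 and 2.53 FPKM in controls and at 1.41, 3.26 and 0 in GFP+ cells, and was not called. Smad5 was not called in either pair, and Smad9 was listed at 0 in all 12 libraries.

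Of 23 regulators of receptors and SMADs, 19 were tested, and in MEP 3 were called higher (Fkbp1a, Xiap and Nedd4l) and 2 lower (Strap and Usp4). Fkbp1a encodes FKBP12, which keeps TGFBR1 inactive without ligand. It was at 5.70, 7.95 and 6.00 FPKM in control MEP and at 30.1, 29.9 and 39.6 in leukemic MEP (2.18 ± 0.23, adjusted p = 4.1e-05). Its marrow values were 49.5 to 52.2 FPKM in controls and 52.3 to 85.4 in GFP+ cells, not called, and the change in MEP exceeded that in marrow by 1.70 ± 0.33 (adjusted p = 0.0114). Strap, a receptor-associated inhibitor, was at 200.1, 162 and 155 FPKM in control MEP and at 100.3, 103 and 83.6 in leukemic MEP (-0.84 ± 0.18, adjusted p = 0.0055). Usp4, a deubiquitinase of TGFBR1, was called at an adjusted p of 0.0439, and lost its call without leukemic MEP 3 (0.068) or GFP+ marrow 2 (0.0559). In marrow Xiap was called higher and Usp11 lower, and both calls were lost without GFP+ marrow 2 (0.103 and 0.129) or 3 (0.08 and 0.128).

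Of 24 nuclear partners and corepressors, 22 were tested, and in MEP 2 were called higher and 3 lower. Ctbp2, a corepressor that binds several SMAD repressors, was at 1.06, 1.35 and 1.05 FPKM in control MEP and at 4.47, 4.46 and 10.5 in leukemic MEP (1.71 ± 0.33, adjusted p = 0.00268). Zmiz1, a SMAD3 and SMAD4 coactivator, was at 2.59 to 3.14 FPKM against 9.28 to 13.8 (1.61 ± 0.24, adjusted p = 0.000539). Tgif2, the paralog of Tgif1, was at 4.15, 3.80 and 3.76 FPKM in control MEP and at 1.46, 1.14 and 0.578 in leukemic MEP (-1.28 ± 0.31, adjusted p = 0.00975). Foxh1, a DNA-binding partner of SMAD2, was at 1.53 to 3.45 FPKM in control MEP and at 0, 0.717 and 0 in leukemic MEP. E2f4, which with SMAD3 represses Myc, was lower in both pairs: 65.5 to 81.1 against 25.7 to 39.5 FPKM in MEP (-1.19 ± 0.23, adjusted p = 0.00286) and 32.3 to 53.5 against 18.6 to 20.8 in marrow (-0.995 ± 0.23, adjusted p = 0.0185), the latter lost without GFP+ marrow 2 (0.0616). In marrow E2f4 was the only gene of the list called, against 3 called lower without leukemic MEP 3. Without leukemic MEP 3 the count in MEP was 4 higher and 3 lower, with Zeb2 and Nrip1 added.

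The 12 genes of the SMAD-independent branch were all tested. In MEP Mapk14, or p38, was called higher at 33.6 to 37.1 against 14.6 to 18.8 FPKM (1.02 ± 0.26, adjusted p = 0.0124), as was its upstream adaptor gene Tab2 (0.77 ± 0.25, adjusted p = 0.0374). Tab1 was called lower (-0.95 ± 0.31, adjusted p = 0.0409). In marrow 0 of 12 were called with limma-trend, 2 at an unadjusted p under 0.05, a threshold at which the share of all genes was not computed.

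**Figure D4:**
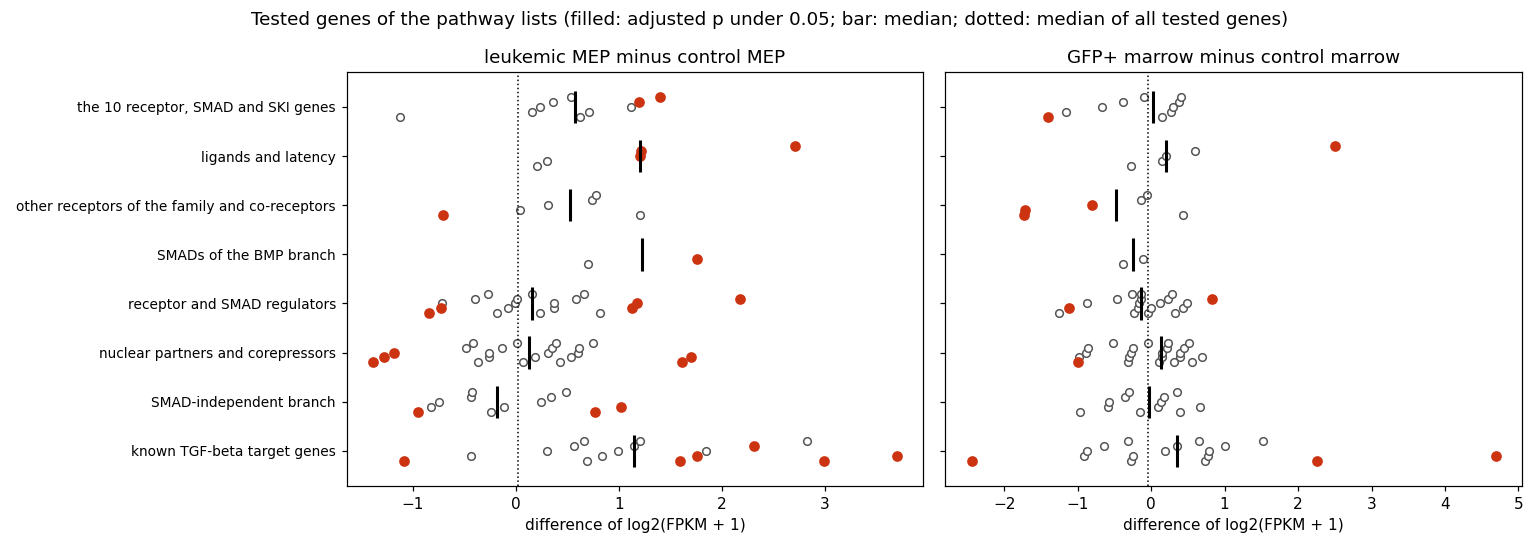
Differences of log2(FPKM + 1) of tested genes in the 10-gene group and 7 pathway lists, in MEP (left) and marrow (right). Filled points are called at an adjusted p under 0.05, bars are list medians and dotted lines the median of all tested genes. Target genes spread widest in MEP, from -1.09 to 3.70. In marrow they ran from -2.45 (Id3) to 4.69 (Cdkn1c). These 2 genes had to differ by the way they passed the filter, so that spread adds no support.

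Of 22 known target genes of TGF-beta, 17 were tested, and 5 were called higher and 1 lower in MEP. Id1, which encodes an inhibitor of differentiation, was at 0.115, 0 and 0.150 FPKM in control MEP and at 6.15, 10.9 and 32.3 in leukemic MEP (3.70 ± 0.44, adjusted p = 9.4e-05). Cdkn1a, the p21 cell cycle inhibitor, was at 0.868, 3.44 and 1.82 FPKM against 22.0, 10.4 and 9.78 (2.31 ± 0.38, adjusted p = 0.000914). Bhlhe40 was at 0.379, 0.0432 and 0.224 FPKM against 2.08, 3.30 and 2.69 (1.60 ± 0.32, adjusted p = 0.00351). Cdkn1c and Gadd45b were the others called higher, and both had their highest leukemic value in replicate 3. Bcl2l11, or BIM, which promotes cell death, was called lower at 4.14 to 6.03 against 1.51 to 2.23 FPKM (-1.09 ± 0.29, adjusted p = 0.0158). The list's median was 1.15 with leukemic MEP 3 and 0.39 without it. Without it 8 were called higher and 1 lower, beside 1722 higher and 1392 lower of all 11462 genes.

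In marrow 2 targets were called higher and 1 lower. Cdkn1c, the p57 cell cycle inhibitor known for quiescence of blood stem cells, was at 0.069, 0.111 and 0.720 FPKM in control marrow and at 32.6, 27.7 and 35.8 in GFP+ marrow. In MEP it was at 0, 0.0693 and 0 FPKM in controls and at 0.647, 1.39 and 9.48 in leukemic cells (1.76 ± 0.54, adjusted p = 0.0303). Id1 was at 10.9, 6.82 and 10.5 FPKM in control marrow and at 43.9, 51.6 and 48.5 in GFP+ marrow (2.26 ± 0.44, adjusted p = 0.00712). Id3, of the same family, was called lower in marrow, at 5.06, 5.10 and 4.80 against 0.321, 0 and 0 FPKM. Leaving out leukemic MEP 3 lowers the shared estimate of the spread. Then 5 targets were called higher and 2 lower in marrow, beside 943 higher and 1194 lower of all 11462 genes. Among these targets was Ahnak, which passed the filter through GFP+ marrow alone.

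The same list differed between the control populations, where 11 of 17 were called lower in control MEP than in control marrow and 0 higher, against 12.3% and 2.63% of all tested genes. Id3 would not have passed the filter without control marrow, where it was high, so it adds no support to this count. Neutrophil genes were among the list: Mmp9 was at 229 FPKM in leukemic MEP 3 and at 0.764 and 0.193 in leukemic MEP 1 and 2. Tgfbi was at 35.4 FPKM in leukemic MEP 3, against 0.166 and 0.725 in leukemic MEP 1 and 2.

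**Figure D5:**
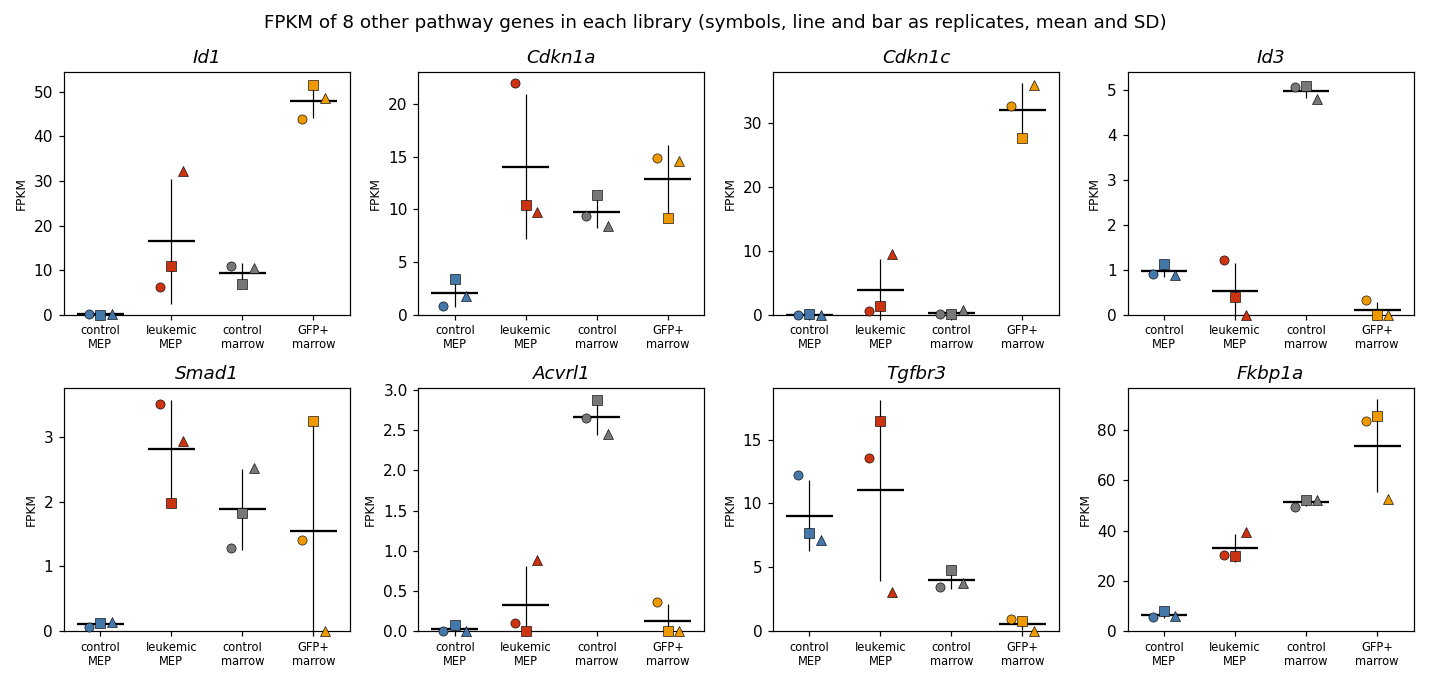
Levels (FPKM, linear axes from 0) of 8 other pathway genes in the 12 libraries. Points are libraries, lines means of 3 and bars SD, drawn no lower than 0. Id1 and Cdkn1c are highest in GFP+ marrow, Id3 and Acvrl1 in control marrow, and the means of Fkbp1a and Smad1 are lowest in control MEP. Cdkn1c, Id3 and Acvrl1 had to differ in marrow by the way they passed the filter.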

How the data were processed

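RNA of sorted cells and marrow was sequenced by Smart-seq2 with Nextera XT libraries, per the labels' protocols. The authors deposited FPKM values per gene (24107 genes, 12 libraries, 0 per-sample columns unused). STAR 2.5.3a, DESeq2 1.18.1 and mm10 are named, per the submitters' processing notes. Which counter and annotation were used is not given in the sources used here.

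FPKM values were tested as log2(FPKM + 1) with limma-trend (limma 3.58.1, R 4.3.3) in 1 fit of 4 groups with 8 residual degrees of freedom, on genes of at least 1 FPKM in at least 3 libraries. P-values were adjusted by the Benjamini-Hochberg method over 11462 genes in each of 5 comparisons. These differences understate changes of low genes. The script was tested on simulated data. Whole reads were recovered for 100% of the 16728 genes above 0 (tolerance 0.02 reads) and used for intervals, depth and a voom alternative. Across 23 alternatives, 21 planned, pseudocount, filter, scaling, weights, fitted groups, replicate block and each library were varied.

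The members, lists and tests were chosen with earlier results of these data known. All members are named, with up to 3 called genes of smallest p per list in MEP, up to 2 in marrow, and 2 genes most like each member (unnamed gene models, Y-linked genes and Xist left out). Other genes were named after their values were seen, to complete small counts or show marker-rich libraries. Promoters and gene positions are from RefSeq, and exon overlaps from GENCODE M21, all on GRCm38.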

Additional observations from a re-analysis of the deposited data

Results flagged for a closer look

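Tgfbr2 differed between MEP and marrow in how it compared with controls. Its difference of log2(FPKM + 1) was 0.62 in MEP and -1.41 in marrow, and the test of the difference between these changes gave 2.04 ± 0.47 (SE, 3 libraries per group; adjusted p = 0.0293, limma-trend). All 3 GFP+ marrow libraries were below all 3 control marrow libraries, while the MEP groups overlapped. Over 22 alternatives the difference of changes ran from 1.49 to 3.26 with adjusted p from 4.2e-05 to 0.103, and 12 of 22 kept the call.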

How the results depend on the processing

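Of 1120 alternative values of 50 results, 1018 kept their direction and their side of the threshold, and 11 results did so throughout. The shallow leukemic MEP 3, with 3 to 45 reads behind each member, limits the precision of every MEP value. The alternatives with voom on recovered reads, and without both leukemic MEP 3 and GFP+ marrow 2, were chosen after seeing the data. Smad6 was not tested at a minimum of 5 FPKM. The cause of the changes below was not tested.

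Members called in MEP numbered 2 as reported, 1 at a minimum of 5 FPKM, with quantile normalization and with only those groups fitted, 6 with array weights, 4 with voom, 4 without both shallow libraries, and 1 to 4 without 1 library. In marrow they numbered 1 as reported, 2 with array weights or voom and 0 to 2 without 1 library. For the difference of changes they numbered 1 as reported, 0 with no filter or quantile normalization, 6 with array weights, 5 with voom, 2 without both and 0 to 2 without 1 library. Between controls they numbered 1 as reported, 2 with only those groups fitted or voom and 4 with array weights. Between leukemic MEP and GFP+ marrow they numbered 0 as reported, 1 at equal FPKM totals, 5 with array weights, 2 with voom and 0 to 1 without 1 library.

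All genes called in MEP numbered 2976 as reported, 1698 with only those groups fitted, 6151 with array weights and 1938 to 3377 without 1 library. There voom called 2046 higher and 1229 lower of 11462, and omitting both shallow libraries called 1786 higher and 1433 lower. Quantile normalization called 1227 higher and 1374 lower in MEP, and a minimum of 5 FPKM called 1289 higher and 1309 lower of 8431. In marrow they numbered 1037 as reported, 1769 with only those groups, 3453 with array weights, 2076 with voom, 1878 without both shallow libraries and 484 to 2137 without 1. The difference of changes gave 560 as reported, 2966 with array weights, 1132 with voom, 1052 without both and 261 to 1086 without 1. For it, no filter called 513 higher and 56 lower of 16728 genes, and quantile normalization called 312 higher and 72 lower of 11462. The controls gave 1716 as reported, 3641 with only those groups, 5511 with array weights, 2731 with voom, 2883 without both and 1059 to 2794 without 1. Leukemic MEP against GFP+ marrow gave 350 as reported, 225 at a pseudocount of 0.1, 205 with no filter, 634 at equal totals, 194 with quantile normalization, 0 with only those groups fitted, 3285 with array weights, 2164 with voom, 1788 without both and 46 to 1779 without 1.

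Signs reversed in 40 values, all of differences not called as reported. In MEP, quantile normalization gave -0.026 for Tgfbr1, -0.066 for Smad2 and -0.29 for Smad7, array weights gave -0.011, -0.020 and -0.14, and omitting both shallow libraries gave -0.037 for Tgfbr1 and -0.041 for Smad7. Without 1 library Tgfbr1 ran from -0.037 to 0.65 and Smad7 from -0.041 to 0.44. In marrow, Tgfbr1 was -0.043 at equal totals and Tgif1 0.36 with array weights. Without 1 library Smad7 ran from -0.024 to 0.68 and Tgif1 from -0.45 to 0.50. In the difference of changes, Tgfbr1 was -0.29 with quantile normalization, -0.29 with array weights, -0.24 without both and -0.19 to 0.50 without 1 library, and Smad7 was 0.021 at equal totals and -0.44 to 0.26 without 1 library. Between controls, quantile normalization gave 0.080 for Tgfbr1, 0.12 for Smad2, 0.025 for Smad3, 0.21 for Smad6 and 0.67 for Smad7, and equal totals gave 0.0023 for Smad2. Between leukemic MEP and GFP+ marrow, Tgfbr1 was 0.19 at equal totals, Smad2 -0.12 with array weights, Smad4 -0.024 without both and Skil -0.0036 at a pseudocount of 0.1. There, without 1 library, Tgfbr1 ran from -0.55 to 0.14, Smad4 from -0.25 to 0.24, Smad7 from -0.62 to 0.083 and Skil from -0.44 to 0.59. Equal totals moved the median of all genes to -0.25 in marrow, 0.18 between controls, 0.36 between the leukemic groups and 0.25 for the difference of changes. Quantile normalization moved it to 0.26 between controls and -0.15 for the difference of changes.

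The labels do not say whether same-numbered libraries were paired, and the results as reported used no pairing. Deviations of same-numbered libraries correlated at -0.16, -0.05 and -0.15 in MEP, at 0.02, -0.06 and 0.02 in marrow and at 0.50, 0.29 and 0.07 between control MEP and control marrow, where control MEP 3 was closest to another number. Between leukemic MEP and GFP+ marrow they correlated at 0.09, 0.22 and 0.15, each leukemic library most closely with its own number, a hint from the data and not the design. Same-numbered libraries of these groups also matched in whether Xist or Ddx3y was expressed. Whether they came from the same recipients is not given, so tests that use both groups may leave out a pairing. A fit with the replicate block kept the calls of Smad6 (adjusted p = 0.00574), Smad4 (0.0357) and Tgfbr2, and it called 2830 genes in MEP, 932 in marrow, 490 for the difference of changes, 1607 between controls and 287 between the leukemic groups.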
